A study of Homo sapiens with 8 samples.

Results

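RNA of the BCL2 family, the proteins that set the threshold for mitochondrial apoptosis, was followed in 2 lines of non-small cell lung cancer and in their variants resistant to the FGFR inhibitor CPL304110. The 10 genes described here were taken by their symbols and were each matched to 1 Ensembl gene among the 37441 listed. They are the survival members BCL2, BCL2L1, BCL2L2 and MCL1, the BH3-only members BCL2L11, BBC3, PMAIP1 and BMF, and the effectors BAX and BAK1. All 10 passed the filter of at least 10 counts over the 8 libraries, which left 18203 genes for the tests. The table holds 4 groups with 2 replicates each, from cultures that were seeded, given fresh medium and harvested 24 h later. NCI-H1581 (in DMEM/F12 medium) and NCI-H1703 (in RPMI 1640 medium) were the sensitive cells, kept with 10% FBS like the resistant ones. NCI-H1581R and NCI-H1703R had been selected from them over 4 to 6 months, starting from 50 nM CPL304110 and ending at 2.5 µM and 5 µM, respectively. The labels do not state whether a resistant variant is 1 clone, or whether the fresh medium before harvest contained the inhibitor. The second replicate came from repeating the culture and harvest, and nothing says that the cells were otherwise independent, so that p-values measure only the spread between these samples.

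Survival proteins of this family sit mainly on the mitochondrial outer membrane and hold the others in check. BH3-only proteins respond to stress or to the loss of growth signals and bind the groove of the survival proteins through their BH3 helix. BAX and BAK1, once released or activated, form the pores through which cytochrome c leaves the mitochondrion and caspases are switched on. In cells that depend on a receptor tyrosine kinase, BCL2L11 (BIM) is the BH3-only member best known for mediating death under kinase inhibitors, and much of its control, like that of MCL1, acts on the protein, which RNA does not show.

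The feature that the whole family shares is the BH3 segment itself, and its coding bases are shown because they are what lets members of the 3 classes bind each other. In the Ensembl canonical transcript of each of the 10 genes (GENCODE v44, GRCh38), exactly 1 stretch encoded leucine or methionine, any 3 residues, glycine or alanine, and aspartate. Capitals mark these 6 codons (18 bases), and 9 coding bases follow in lower case on either side. All stretches lay within a single coding exon.
BCL2: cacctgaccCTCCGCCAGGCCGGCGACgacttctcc
BCL2L1: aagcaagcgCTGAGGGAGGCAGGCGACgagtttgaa
BCL2L2: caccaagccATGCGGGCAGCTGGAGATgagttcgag
MCL1: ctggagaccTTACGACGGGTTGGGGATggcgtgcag
BCL2L11: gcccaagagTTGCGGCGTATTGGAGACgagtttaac
BBC3: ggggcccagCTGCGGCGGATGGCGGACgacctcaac
PMAIP1: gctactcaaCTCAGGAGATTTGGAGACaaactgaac
BMF: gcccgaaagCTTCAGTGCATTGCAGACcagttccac
BAX: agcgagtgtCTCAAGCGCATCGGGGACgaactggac
BAK1: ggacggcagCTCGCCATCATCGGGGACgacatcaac
In 7 of the 10 genes the segment encoded leucine at the start and glycine before the aspartate. BCL2L2 encoded methionine at the start, and BBC3 and BMF encoded alanine in place of the glycine. Over the 45 pairs of genes, 5 to 13 of the 18 bases were identical, with a median of 10. The pairs BCL2 with BCL2L1, BCL2L11 with BBC3, and BAX with BAK1 shared 13 each. On GRCh38 the stretches of BCL2 (chr18:63318352-63318387, exon 2 of 3, minus strand) and BMF (chr15:40104198-40104233, exon 4 of 5, minus strand) belong to the 2 members whose RNA was called as changed with resistance.

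Library totals ranged from 33800389 to 40031710 counts, with a median of 36739992. The share of counts from the 13 protein genes of mitochondrial DNA was 6.59% and 5.36% in NCI-H1581 and 1.60% to 3.34% in the other 6 libraries. Leukocyte genes (PTPRC, CD14, CD3E) summed to at most 0.399 CPM (counts scaled to library size) and endothelial genes (PECAM1, CDH5, VWF) to at most 0.449 CPM in any library. The 5 epithelial genes EPCAM, CDH1, KRT8, KRT18 and KRT19 summed to 13.1 to 22.7 CPM in NCI-H1581 and NCI-H1581R, 73.3 to 75.6 CPM in NCI-H1703 and 6.76 to 8.41 CPM in NCI-H1703R. Most of the NCI-H1703 sum was KRT18, at 64.3 and 65.4 CPM against 2.88 and 2.48 in NCI-H1703R. Of 3 genes that commonly mark fibroblasts (COL1A1, COL3A1, DCN), the summed level was 4296 to 4344 CPM in NCI-H1581, 2117 to 2295 CPM in NCI-H1581R, 3.57 to 4.52 CPM in NCI-H1703 and 24.5 to 28.5 CPM in NCI-H1703R, nearly all of it from COL3A1 in the NCI-H1581 line. Squamous genes (TP63, KRT5, KRT14, SOX2) summed to 7.52 to 8.01 CPM in NCI-H1581, 34.4 to 38.9 in NCI-H1581R, 38.2 to 38.5 in NCI-H1703 and 0.82 to 1.37 in NCI-H1703R, where SOX2 had 21 and 7 counts against 1407 and 1244 before selection. Lung adenocarcinoma genes (NKX2-1, SFTPB, NAPSA) summed to 15.6 to 17.5 CPM in NCI-H1581, 41.5 to 61.5 in NCI-H1581R and at most 2.60 in the NCI-H1703 line. These differences move with the groups, and their part in the results was not tested.

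BMF was the only one of the 10 members called in NCI-H1581R against NCI-H1581, and BCL2 the only one in NCI-H1703R against NCI-H1703. A gene was called at an adjusted p under 0.1 in the quasi-likelihood F-test of edgeR, adjusted by Benjamini-Hochberg over all genes tested. Of all genes, 15.1% were called in the NCI-H1581 line (7.63% higher, 7.44% lower) and 14.7% in the NCI-H1703 line (7.06% higher, 7.67% lower), so that 1 of 10 members is close to what all genes showed. The members had median log2 fold changes of -0.04 (NCI-H1581 line) and 0.00343 (NCI-H1703 line), beside 0.04 and 0 over all genes tested. Without overlap between sensitive and resistant replicates stood 7 members of the NCI-H1581 line and 3 of the other, beside 50.6% and 51.3% of all genes. In RNA from whole cultures, fewer cells with a transcript and less of it per cell cannot be told apart.

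**Figure D1:**
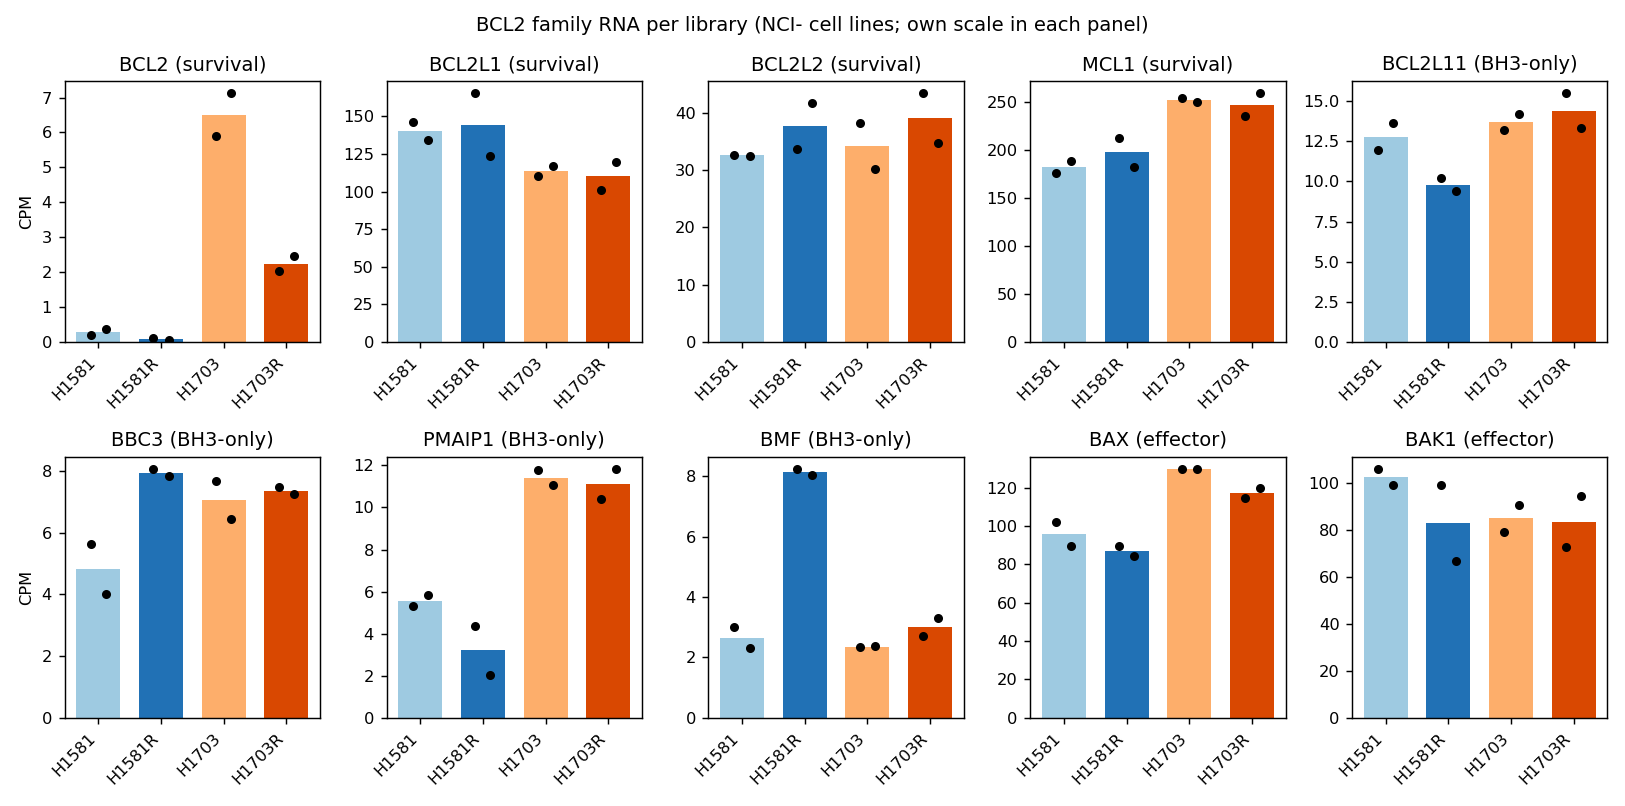
CPM (vertical axis, from 0, own scale in each panel) of the 10 members in the 4 groups, with bars for the mean and points for the 2 replicates. BMF stood at 8.05 and 8.24 CPM in NCI-H1581R and at most 3.30 CPM elsewhere, and BCL2 was at most 0.37 CPM in all 4 libraries of the NCI-H1581 line.

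BCL2 (chr18:63123346-63320128), the founding survival gene of the family, was nearly absent from one line and fell with resistance in the other. NCI-H1581 had 7 and 15 counts of BCL2, NCI-H1581R 4 and 2, NCI-H1703 218 and 238, and NCI-H1703R 77 and 93. In CPM these were 0.21 and 0.37, 0.11 and 0.05, 5.89 and 7.12, and 2.04 and 2.46. No pair of groups overlapped (71.3% of all genes did not between the resistant variants and 76.7% not between the sensitive lines), and the order was NCI-H1703, NCI-H1703R, NCI-H1581 and NCI-H1581R from the highest down. In NCI-H1703R the log2 fold change was -1.50 (standard error 0.25, 95% interval -2.12 to -0.88, edgeR adjusted p = 0.0226), and the summed counts per total were 2.84 times lower, with an exact 95% interval of 2.38 to 3.41 that covers counting error only. The call was lost without either NCI-H1703 replicate, at log2 fold changes of -1.65 and -1.34 (adjusted p = 0.167 and 0.216), where 293 and 274 genes were called in all instead of 2683. In NCI-H1581 the fitted log2 fold change was -1.88 with a 95% interval from -4.05 to 0.29 (edgeR adjusted p = 0.272), resting on 22 counts against 6. As few as 3 counts in a library, equal to 0.0749 to 0.0897 CPM, were taken as the floor, and 1 of the NCI-H1581R replicates was below it. In edgeR's interaction test the BCL2 changes of the 2 lines were 0.36 apart on the log2 scale (adjusted p = 0.919), with a 95% interval of -1.82 to 2.54 that is too wide to show that they were alike.

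The 2 survival genes with the most RNA, MCL1 and BCL2L1 (which encodes BCL-XL), were not called with resistance in either line. MCL1 (chr1:150560895-150579738) had 177 and 189 CPM in NCI-H1581, 213 and 183 in NCI-H1581R, 255 and 250.1 in NCI-H1703 and 236 and 259 in NCI-H1703R. The log2 fold changes of MCL1 were 0.12 (95% interval -0.28 to 0.53) in NCI-H1581 and 0.00287 (-0.22 to 0.22) in NCI-H1703, and sensitive and resistant libraries overlapped in both lines. BCL2L1 (chr20:31664452-31723989) had 146 and 134 CPM in NCI-H1581, 165 and 124 in NCI-H1581R, 110.5 and 117 in NCI-H1703 and 101 and 119 in NCI-H1703R. The replicates of NCI-H1581R thus lay on either side of NCI-H1581. Its log2 fold changes were 0.05 (-0.40 to 0.51) and -0.01 (-0.28 to 0.26). These intervals leave room for changes of up to about 0.5 on the log2 scale in NCI-H1581 and are narrower in NCI-H1703.

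BCL2L2 (chr14:23298790-23311751), which encodes BCL-W, had 32.6 and 32.5 CPM in NCI-H1581, 33.8 and 41.7 in NCI-H1581R, 38.2 and 30.2 in NCI-H1703 and 43.4 and 34.8 in NCI-H1703R. The log2 fold change of BCL2L2 was 0.22 in both lines (95% intervals -0.22 to 0.67 and -0.18 to 0.63), without a call. With the replicate number as a block it was called in NCI-H1703R, at 0.23 and an adjusted p of 0.0637, a fit that called 6357 genes in all instead of 2683. The value is uncertain, because 16.8% of the BCL2L2 exon bases belong also to the readthrough gene BCL2L2-PABPN1 on the same strand, to which 7099 counts were assigned beside the 10696 of BCL2L2. Exons of BCL2L1 overlap the antisense RNA ABALON over 41.3% of their bases, and whether reads were counted by strand is not stated.

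Among the BH3-only genes, BMF rose in NCI-H1581R. BMF (chr15:40087890-40108892) encodes a protein known to be held on the cytoskeleton and released when cells detach. It had 101 and 92 counts in NCI-H1581, 310 and 317 in NCI-H1581R, 87 and 79 in NCI-H1703 and 102 and 125 in NCI-H1703R. Only the NCI-H1581R libraries stood apart, at 8.24 and 8.05 CPM against 2.997 and 2.30 in NCI-H1581. The log2 fold change was 1.64 (standard error 0.28, 95% interval 0.96 to 2.32, edgeR adjusted p = 0.0155), a 3.12-fold rise. It kept its size without either NCI-H1581 replicate, at 1.82 and 1.45, but not its call (adjusted p = 0.106 and 0.182), in fits that called 1160 and 1122 genes in all instead of 2743. In NCI-H1703R, with 2.70 and 3.30 CPM against 2.35 and 2.36, the value was 0.38 (-0.30 to 1.05, adjusted p = 0.472).

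BMF was also the only member whose change with resistance was called as different between the lines, where 15.4% of all genes were called (6.93% with a positive and 8.47% with a negative difference). The NCI-H1703 change minus the NCI-H1581 change was -1.29 on the log2 scale (standard error 0.37, adjusted p = 0.0626 from edgeR's interaction test on all 8 libraries). At a threshold of 0.05 no member was called in this test, by edgeR or by DESeq2 (adjusted p of BMF 0.0648), and BMF was the 1 member with an unadjusted p under 0.05. The other 9 members had edgeR adjusted p from 0.242 to 1. The call was also lost without the second NCI-H1581 replicate or without any single NCI-H1703 or NCI-H1703R library (adjusted p from 0.119 to 0.210), with differences between -1.44 and -1.09.

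BBC3, PMAIP1 and BCL2L11 were not called in either line. Their sensitive and resistant replicates did not overlap in the NCI-H1581 line, as was the case for 50.6% of all genes. BBC3 (chr19:47220822-47232766) encodes PUMA, a target of p53. It had 5.64 and 4.00 CPM in NCI-H1581, 8.05 and 7.82 in NCI-H1581R, 7.68 and 6.43 in NCI-H1703 and 7.48 and 7.23 in NCI-H1703R. Both NCI-H1581R libraries were thus above both NCI-H1581 libraries and above the 4 of the NCI-H1703 line. The log2 fold change in NCI-H1581R was 0.74 (95% interval 0.08 to 1.40, adjusted p = 0.159), and a single fit of all 8 libraries called it (0.73, adjusted p = 0.0571). In NCI-H1703R it was 0.09 (-0.34 to 0.52).

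PMAIP1 (chr18:59899996-59904305) encodes NOXA, which binds MCL1. It had 5.31 and 5.82 CPM in NCI-H1581, 4.38 and 2.03 in NCI-H1581R, 11.8 and 11.1 in NCI-H1703 and 10.4 and 11.8 in NCI-H1703R. The NCI-H1581R replicates differed more from each other than the nearer one did from NCI-H1581. The log2 fold change there was -0.80 (-1.74 to 0.15, adjusted p = 0.283), and it was called only without the first NCI-H1581R replicate (-1.44, adjusted p = 0.0386). Without the second it was -0.36 (adjusted p = 0.518). In NCI-H1703R it was -0.00693 (-0.36 to 0.35).

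BCL2L11 (chr2:111119378-111168444) had 11.9 and 13.6 CPM in NCI-H1581, 10.2 and 9.40 in NCI-H1581R, 13.2 and 14.2 in NCI-H1703 and 15.5 and 13.3 in NCI-H1703R. The log2 fold changes of BCL2L11 were -0.38 (-0.90 to 0.14, adjusted p = 0.358) and 0.10 (-0.26 to 0.47, adjusted p = 0.735). The RNA of BIM was thus not called as changed by selection in either line.

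Neither effector gene was called with resistance in either line. BAX (chr19:48954815-48961798) had 102 and 89.5 CPM in NCI-H1581, 89.6 and 84.3 in NCI-H1581R, 129.7 and 129.7 in NCI-H1703 and 115 and 120.0 in NCI-H1703R. BAK1 (chr6:33572547-33580293) had 106 and 99.4, 99.2 and 66.7, 79.4 and 91.0, and 72.7 and 94.7 CPM in the same order. Their log2 fold changes lay between -0.30 and 0.00398 over both lines, with adjusted p from 0.472 to 1. The second NCI-H1581R replicate had the lowest BAK1 of all 8 libraries, and without the first NCI-H1581R replicate BAK1 was called (-0.60, adjusted p = 0.0178), while without the second its value was -0.06 (adjusted p = 0.824).

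**Figure D2:**
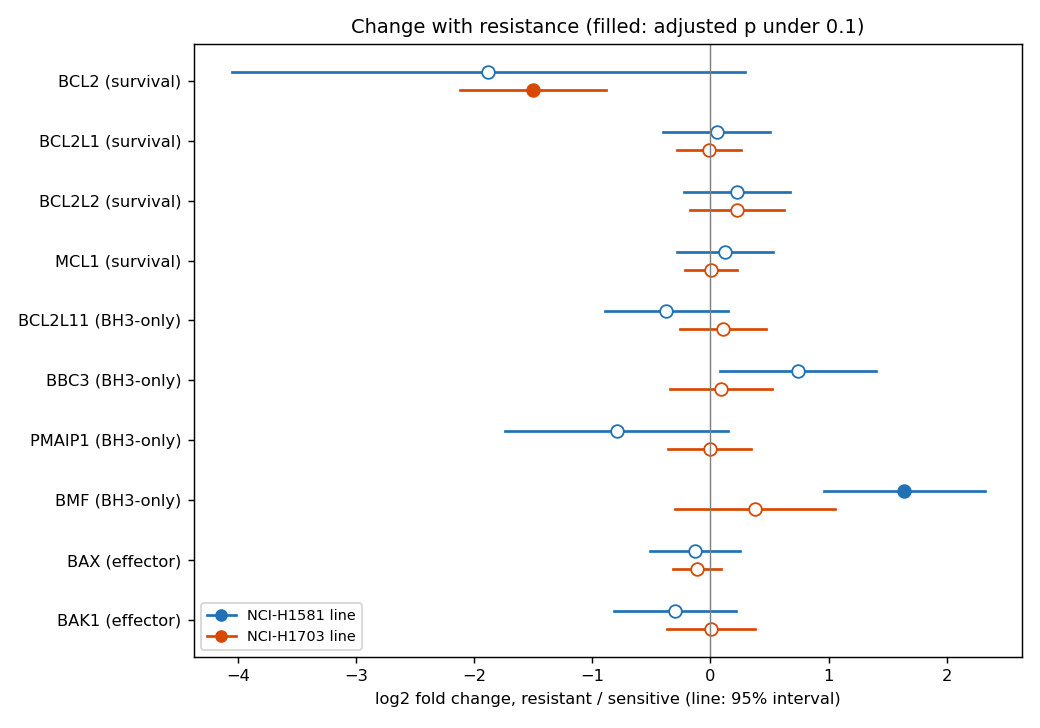
Log2 fold change of resistant over sensitive cells (horizontal axis) for the 10 members, with lines for 95% intervals and filled points for an adjusted p under 0.1. BMF at 1.64 in the NCI-H1581 line and BCL2 at -1.50 in the NCI-H1703 line are the filled points, and 6 members in NCI-H1581 and 9 in NCI-H1703 lie within 0.5 of 0.

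The levels of the genes within a group were compared per length, as CPM per kb of the canonical transcript. BAX was the highest member in all 4 groups, at 120.4 ± 11.1 in NCI-H1581, 109 ± 4.73 in NCI-H1581R, 163 ± 0.00168 in NCI-H1703 and 148 ± 4.79 in NCI-H1703R (SD, n = 2). With union exon lengths, which are longer for BAX, BAK1 came first in NCI-H1581 (46.4 ± 2.15 against 37.0 ± 3.40 for BAX) and NCI-H1581R (37.5 ± 10.4 against 33.6 ± 1.45). By canonical lengths BCL2L1, MCL1 and BAK1 followed, between 38.2 and 63.9 CPM per kb. MCL1 stood above BCL2L1 in NCI-H1703 and NCI-H1703R, while the spreads of these 2 genes overlapped in NCI-H1581R. BCL2L2 came next in every group (9.23 to 11.1). The BH3-only genes were lower still, at 0.50 to 6.01, and BCL2 was the lowest member except in NCI-H1703, where BMF was. With median transcript lengths BCL2 was the lowest in all 4 groups, at 1.17 against 3.51 for BMF in NCI-H1703. The highest BH3-only value by these lengths was 12.1, for BMF in NCI-H1581R.

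The balance of the classes was described by the summed level per length of the 4 survival genes over that of the 4 BH3-only genes. The log2 ratio was 3.65 and 3.70 in NCI-H1581, 3.61 and 3.58 in NCI-H1581R, 3.15 and 3.23 in NCI-H1703 and 3.09 and 3.18 in NCI-H1703R. The libraries of the 2 lines did not overlap. NCI-H1581R was lower than NCI-H1581 by a difference of -0.08 (pooled SD 0.03) and NCI-H1703R differed from NCI-H1703 by -0.06 (pooled SD 0.06), while NCI-H1703 was below NCI-H1581 by a difference of -0.49 (pooled SD 0.05). An exact two-sided permutation test of 2 against 2 libraries cannot give less than 0.333, and it gave 0.333, 0.667 and 0.333.

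The measure depends on how genes are weighted. When each gene counted equally (mean of log2 levels), the difference between the sensitive lines became 0.80 in favour of NCI-H1703, where BCL2 was higher. The differences with resistance became -0.67 in NCI-H1581 and -0.46 in NCI-H1703. Both rest in part on BCL2, the survival gene with the least RNA, which here counts as much as MCL1. Its log2 fold changes were -1.88 in NCI-H1581, on 22 counts against 6, and -1.50 in NCI-H1703. With median transcript lengths in place of canonical ones the differences were -0.27 in NCI-H1581 and -0.22 between the lines. A sum of transcripts is not a balance of proteins.

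**Figure D3:**
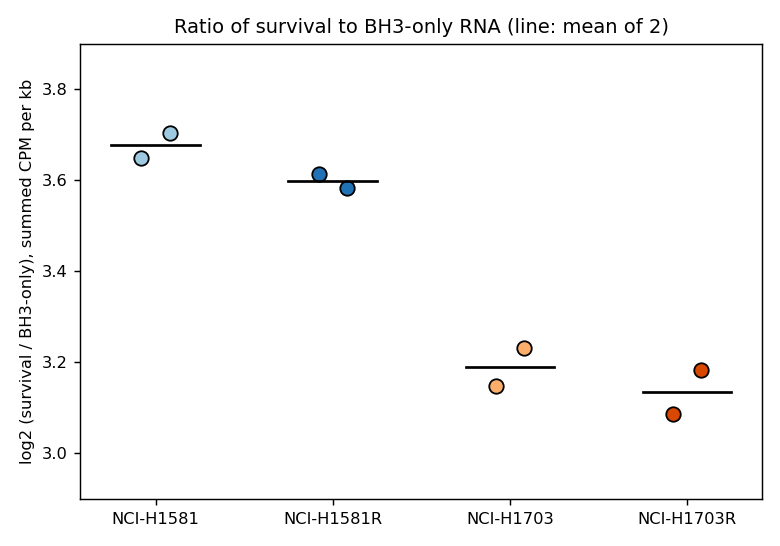
Log2 of the summed CPM per kb of the survival genes over that of the BH3-only genes (vertical axis, from 2.9 to 3.9) in the 4 groups, with points for replicates and lines for means. The libraries of the NCI-H1581 line lie between 3.58 and 3.70 and those of the NCI-H1703 line between 3.09 and 3.23.

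The make-up of each pool was also read, as the share of each gene in the summed level per length. BMF made up 7.23% and 5.84% of the BH3-only pool in NCI-H1581 and 16.8% and 19.4% in NCI-H1581R, and BBC3 34.6% and 25.8% against 41.8% and 47.8%. PMAIP1 had 31.7% and 36.5% in NCI-H1581 and 22.1% and 12.1% in NCI-H1581R, and BCL2L11 26.5% and 31.8% against 19.2% and 20.8%. The shares of a pool add up to its whole, so that the rise of BMF by itself lowers the others. As genes, BBC3, PMAIP1 and BCL2L11 were not called (adjusted p = 0.159, 0.283 and 0.358), and the lack of overlap between the variants in all 4 shares stands beside 50.6% of all genes without overlap in CPM. In NCI-H1703 the pool kept its order by canonical lengths, with PMAIP1 at 46.1% and 46.3% before and 41.7% and 46.3% after selection. The make-up of the BH3-only pool depends on the length used. With median transcript lengths BCL2L11 came first in NCI-H1703, at 11.1 CPM per kb against 7.22 for PMAIP1. By the same lengths BMF came first in NCI-H1581R, at 12.1 against 7.93 for BCL2L11. In the survival pool MCL1 made up 40.3% to 43.8% in the 4 libraries of the NCI-H1581 line and 53.5% to 54.2% in those of the NCI-H1703 line, and BCL2 was below 1% everywhere, at most 0.87%.

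**Figure D4:**
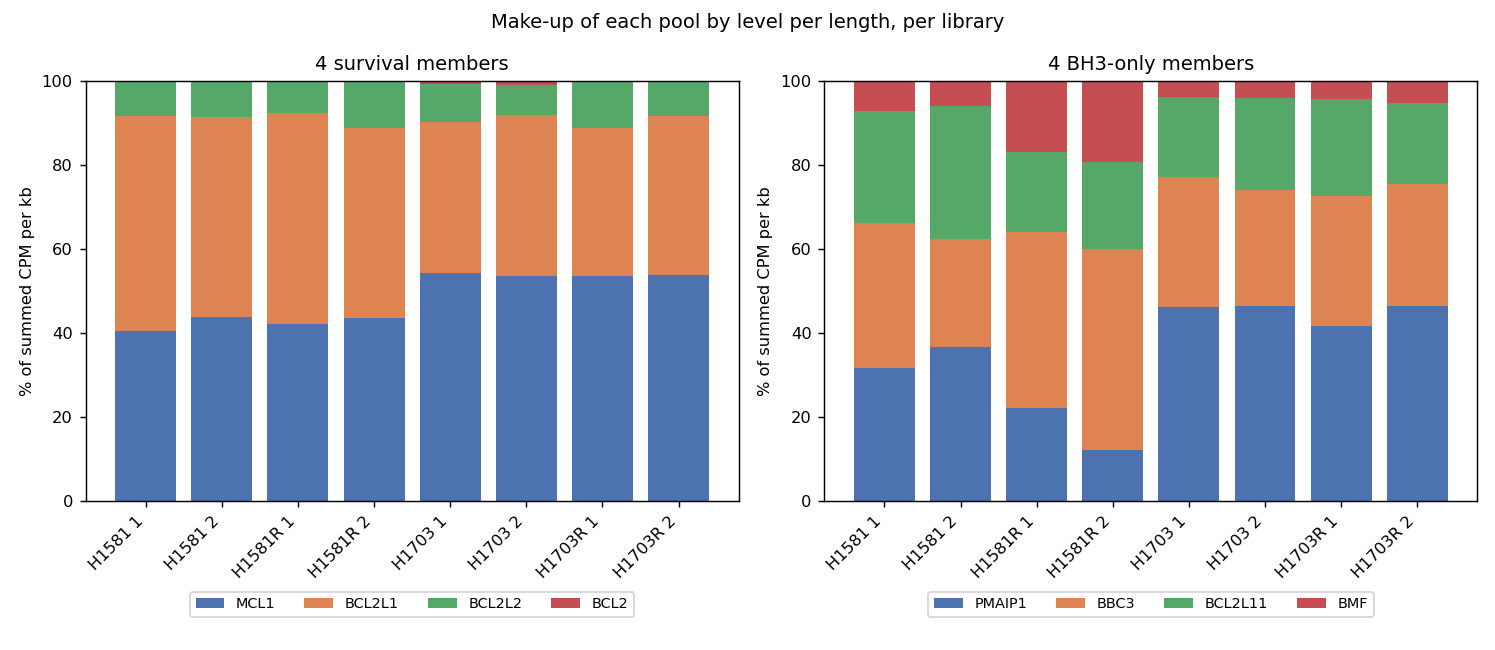
Share of each gene (stacked bars, percent of the summed CPM per kb of the canonical transcript) in the survival pool on the left and the BH3-only pool on the right, for each of the 8 libraries, named by line and replicate. The red BMF segment grew from 5.84% to 7.23% in NCI-H1581 to 16.8% to 19.4% in NCI-H1581R, and MCL1 (blue, left) is larger in the NCI-H1703 line.

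The lines differed in most members before selection. Of the 10 members, 7 were called between NCI-H1703 and NCI-H1581, where 62.9% of all genes were called (32.5% higher and 30.4% lower in NCI-H1703), so that the share among members is near the background. The lines grew in different media, and medium and line cannot be told apart. BCL2 was higher in NCI-H1703 by 4.42 on the log2 scale (standard error 0.43, edgeR adjusted p = 0.000101), and by summed counts 22.1 times (exact 95% interval 14.5 to 35.7, counting error only). PMAIP1 was 1.03 higher (standard error 0.19, adjusted p = 0.00241), MCL1 0.47 higher (adjusted p = 0.00418) and BAX 0.44 higher (adjusted p = 0.00707). BCL2L1 was lower, with a log2 fold change of -0.30 (adjusted p = 0.0323). The calls of BAK1 (-0.27, adjusted p = 0.0764) and BBC3 (0.57, adjusted p = 0.0853) passed at 0.1 and not at 0.05, and DESeq2 did not call BBC3. Without the first NCI-H1703 replicate 4 members were called.

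Between the resistant variants 5 members were called, where 52.5% of all genes were (25.9% higher and 26.7% lower in NCI-H1703R). This comparison has no library in common with that of the sensitive cells. BCL2 was higher in NCI-H1703R by 4.83 (standard error 0.58, edgeR adjusted p = 0.00152), or 28.4 times by summed counts (exact 95% interval 12.8 to 78.5). PMAIP1 was 1.83 higher (adjusted p = 0.0141), BCL2L11 0.59 higher (adjusted p = 0.0640) and BAX 0.47 higher (adjusted p = 0.0455), and BMF was lower with a log2 fold change of -1.41 (adjusted p = 0.00809). Between the sensitive lines the values of BMF and BCL2L11 had been -0.16 and 0.09, without a call. With the replicate number as a block 3 of the 5 were called, without BCL2L11 (adjusted p = 0.170) and BAX (adjusted p = 0.177), and leaving out either NCI-H1703R replicate also left 3.

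Around the family, 28 genes in 4 lists were examined: 7 further family members, 11 genes that act downstream of the mitochondrial pore, 7 transcription factors known to act on BH3-only genes, and 3 regulators of MCL1 protein turnover. BCL2A1 and BCL2L10 had too few counts to be tested (0 to 3 in every library), which left 26. Of these, 8 rose and 1 fell in NCI-H1581R, and 3 rose in NCI-H1703R, where 7.63%, 7.44% and 7.06% of all genes did. The 4 lists were chosen with earlier results of these data known. Their counts of called genes therefore cannot show that they differ from all genes. The median log2 fold change over the 26 was 0.44 in NCI-H1581R and -0.07 in NCI-H1703R, beside 0.04 and 0 over all genes.

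Among the further family members, 1 of the 5 tested rose in NCI-H1581R (3 had an unadjusted p under 0.05, and DESeq2 called 2) and none was called in NCI-H1703R, where 0 had an unadjusted p under 0.05 and DESeq2 called 0. HRK, a BH3-only gene best known from neurons, had 37 and 69 counts in NCI-H1581, 227 and 264 in NCI-H1581R, 450 and 391 in NCI-H1703 and 369 and 390 in NCI-H1703R. The NCI-H1581R libraries thus lay between NCI-H1581 and the NCI-H1703 line. The log2 fold change was 2.16 in NCI-H1581R (standard error 0.35, edgeR adjusted p = 0.0126) and -0.22 in NCI-H1703R (adjusted p = 0.398), and without the first NCI-H1581 replicate the call was lost (1.88, adjusted p = 0.116). BID and BOK, named after their values were seen, encode a BH3-only protein and a relative of the effectors. In NCI-H1581R they had values of -0.52 (edgeR adjusted p = 0.196) and -0.63 (edgeR adjusted p = 0.111), without a call by edgeR. Their sensitive and resistant replicates did not overlap, as was the case for 50.6% of all genes.

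Downstream of mitochondria, 2 of 11 genes rose in NCI-H1581R and none was called in NCI-H1703R, where 2 had an unadjusted p under 0.05 and DESeq2 called 1. BIRC2, which encodes the inhibitor of apoptosis cIAP1, went from 21.8 and 23.5 to 35.5 and 38.3 CPM in NCI-H1581R (log2 fold change 0.72, standard error 0.18, edgeR adjusted p = 0.0529). CASP9, the initiator caspase of the apoptosome, went from 26.1 and 22.0 to 40.8 and 34.8 CPM (0.66, standard error 0.19, adjusted p = 0.0797). The call of either gene was lost at a threshold of 0.05 and without either NCI-H1581 replicate. A gene that restrains caspases and one that starts them were thus both higher.

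Of the 7 transcription factors, 3 rose and 1 fell in NCI-H1581R, and 1 rose in NCI-H1703R, where DESeq2 called 2. DDIT3, which encodes the stress factor CHOP, rose in both lines, from 16.4 and 12.3 to 25.7 and 42.7 CPM in NCI-H1581R and from 29.7 and 22.5 to 64.7 and 55.8 CPM in NCI-H1703R. The log2 fold changes were 1.27 (standard error 0.29, edgeR adjusted p = 0.0439) and 1.24 (standard error 0.16, adjusted p = 0.00967). Opposite DDIT3, over 27.2% of its exon bases, lies MARS1 with 118467 counts. Whether reads were counted by strand is not stated, and if they were not, reads within the shared bases could come from either gene. TP73, a relative of p53, fell from 1061 and 1110 to 135 and 178 counts in NCI-H1581R, a log2 fold change of -2.85 (standard error 0.23, edgeR adjusted p = 0.000624), and had 17 to 42 counts in the NCI-H1703 line (-0.71, adjusted p = 0.455). Of its exon bases 9.35% lie opposite TP73-AS1. ATF4 and FOXO3, named after their values were seen, rose in NCI-H1581R by 1.27 (adjusted p = 0.00662) and 0.80 (adjusted p = 0.0354). ATF4 had 203 and 221 CPM in NCI-H1581 and 481 and 537 in NCI-H1581R, and FOXO3 35.4 and 41.5 against 67.4 and 65.6. In NCI-H1703R, ATF4 had a value of 0.30 (edgeR adjusted p = 0.109) and was called by DESeq2 (adjusted p = 0.0108), with at least 10 counts in every library (0.0740) and with the replicate block (0.00482). The calls of DDIT3, ATF4 and FOXO3 were lost without either NCI-H1581 replicate (adjusted p from 0.152 to 0.350), and that of DDIT3 in NCI-H1703R without the second NCI-H1703 replicate (1.07, adjusted p = 0.133).

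Of the 3 regulators of MCL1 protein, HUWE1 and USP9X rose in both lines. HUWE1 encodes a ubiquitin ligase that marks MCL1 for degradation, and USP9X a deubiquitinase that stabilises it. HUWE1 had 506 and 505 CPM in NCI-H1581, 723 and 842 in NCI-H1581R, 310 and 326 in NCI-H1703 and 505 and 527 in NCI-H1703R, and its log2 fold changes were 0.64 (edgeR adjusted p = 0.0866) and 0.73 (adjusted p = 0.0108). USP9X had 287 and 337, 530 and 589, 207 and 234, and 340 and 397 CPM in the same order, and its log2 fold changes were 0.85 (edgeR adjusted p = 0.0373) and 0.77 (adjusted p = 0.0192). The 2 genes act on MCL1 in opposite ways, and MCL1 RNA had values of 0.12 and 0.00287 in the same comparisons. HUWE1 (chrX:53532096-53686752) and USP9X (chrX:41085445-41236579) lie on the same chromosome. The study reported a gain of DNA copy number on a part of chromosome X in NCI-H1703R. Its text does not say whether that part holds these genes, and a role of copy number was not tested. At a threshold of 0.05 HUWE1 was not called in NCI-H1581R. All 4 calls were lost without either sensitive replicate of the line (adjusted p from 0.163 to 0.580).

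**Figure D5:**
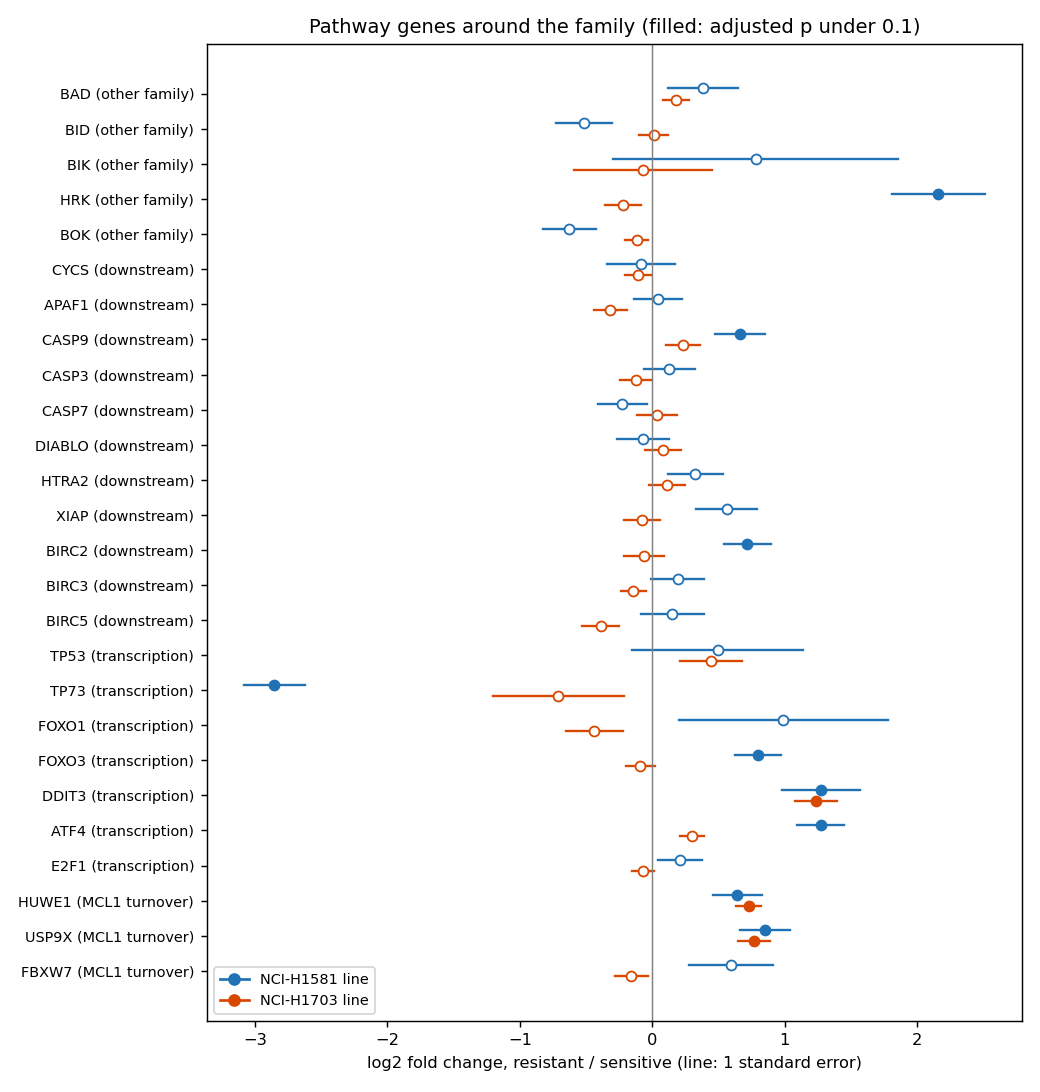
Log2 fold change of resistant over sensitive cells (horizontal axis) for the 26 tested genes of the 4 lists, with lines of 1 standard error and filled points for an adjusted p under 0.1. DDIT3, HUWE1 and USP9X are filled in both lines, HRK (2.16) lies farthest to the right and TP73 (-2.85) farthest to the left in the NCI-H1581 line.

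The surroundings of the 2 called members on the chromosome were also read, where 7.63% (higher) and 7.44% (lower) of all genes were called in NCI-H1581R, and 7.06% and 7.67% in NCI-H1703R. Of 24 genes within 1 Mb of BMF with a mean of at least 1 CPM, 3 were called as higher and 4 as lower in NCI-H1581R, with a median log2 fold change of -0.21. Of 10 such genes near BCL2, none was called as higher and 3 as lower in NCI-H1703R, with a median of -0.19.

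The genes whose pattern over the 8 libraries lay nearest to that of BMF were LRRC42, DNAJC1 and ROCK1P1, at Euclidean distances of 0.29, 0.39 and 0.41 in centred log2 CPM (0.5 added) among 13375 genes. The nearest to BCL2 were TPM1, GRIK3 and CNRIP1, at 0.48, 0.58 and 0.60. These distances are descriptions over libraries that share their cell line.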

How the data were processed

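RNA-seq was measured in 8 libraries, 2 for each of 4 groups taken from the labels. The authors trimmed paired reads of 100 bp with cutadapt, ran Salmon on GRCh38 and used tximport for the sum per gene, and the deposited estimated counts are whole numbers without normalisation. Versions, strandedness and the annotation used are not given in the sources used here. The members and lists were chosen with earlier results of these data known.

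Genes with at least 10 counts over the 8 libraries were tested with edgeR 4.0.16 in R 4.3.3 (TMM, quasi-likelihood F-test, adjusted deviances, two-sided), each comparison on its own 4 libraries and the interaction on 8, with Benjamini-Hochberg adjustment and a threshold of 0.1. The standard error was the log2 fold change over the square root of F. CPM used TMM factors of all 8 libraries. Lengths and positions came from GENCODE v44. The fit was also run on simulated counts drawn independently for each library, which cannot speak to deviations that replicates share. From each list, genes called in both lines and at most 2 per line with the largest called change were named.

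Sensitive and resistant libraries of the same number shared part of their deviation from the group means (Pearson's r over 9828 genes, which are not independent replicates, 0.156 for NCI-H1581 and 0.237 for NCI-H1703). Across lines r was -0.317 to 0.033. A single gene could still follow the replicate number in both lines. KRT5 had 0 or 1 count in each first replicate and 35 to 47 counts in each second one. The pairing rests on the labels, where the second replicate is a repeat of the procedure. Replicates differed by more than sampling noise (chi-square per degree of freedom 24.6 to 103.2). Alternatives were DESeq2 1.42.0, RLE factors, other filters, the replicate block, a fit of all 8 libraries, a threshold of 0.05, other lengths and each replicate left out. Chosen after seeing the data were legacy quasi-dispersions and the block within each line. Where a replicate was left out, the lone library is assumed to vary like the other group.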

Additional observations from a re-analysis of the deposited data

Results flagged for a closer look

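The change with resistance was called as different between the lines for 1 of 10 members and 5 of the 26 tested genes of the lists. The calls came from edgeR's interaction test on all 8 libraries with Benjamini-Hochberg adjustment, which called 15.4% of all genes. Each value is the NCI-H1703 log2 fold change minus the NCI-H1581 one. BMF stood at -1.29 (adjusted p = 0.0626), with 1.64 in NCI-H1581 and 0.38 in NCI-H1703. HRK, the other BH3-only gene that rose in NCI-H1581R, stood at -2.40 (adjusted p = 0.00253), with 2.16 and -0.22. TP73 stood at 2.12 (adjusted p = 0.0409), with -2.85 and -0.71, the latter on 17 to 42 counts per library. The TP73 call was lost without either NCI-H1703 replicate (adjusted p = 0.136 and 0.101) and without the second NCI-H1703R replicate (1.51, adjusted p = 0.326). ATF4 stood at -0.99 (adjusted p = 0.00947), FOXO3 at -0.91 (adjusted p = 0.0165) and BIRC2 at -0.80 (adjusted p = 0.0585). The BIRC2 call was lost at a threshold of 0.05 and without either NCI-H1581 replicate, either NCI-H1703 replicate or the first NCI-H1703R replicate (adjusted p from 0.107 to 0.246). With any 1 library left out, HRK, ATF4 and FOXO3 stayed under 0.1.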

How the results depend on the processing

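Each log2 fold change printed here, apart from those of BID and BOK, was recomputed under each alternative that kept the gene. The filter of 10 counts in every library left BCL2 out of every comparison with libraries of the NCI-H1581 line. Of the values recomputed with all libraries, 440 kept the direction and the side of the threshold, 14 lost and 5 gained a call, and 9 changed sign. Of those with a library left out, 196 kept both, 49 lost and 2 gained a call, and 17 changed sign. Every sign change was in a value without a call, and the cause was not tested. In NCI-H1703R, MCL1 was at -0.01 with DESeq2, RLE factors or 10 counts in every library and at -0.03 in the fit of 8 libraries, and BAK1 at -0.01 in the first 3, -0.02 in the last and -0.00241 with the replicate block.

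The number of members called in NCI-H1581R was 2 in the fit of 8 libraries, and it was 0 to 3 with a library left out. In NCI-H1703R it was 2 with the replicate block and 0 to 1 with a library left out. Between the resistant variants it was 3 with the replicate block and 3 to 5 with a library left out, and between the sensitive lines 4 to 6. In the interaction it was 0 at a threshold of 0.05, 0 to 2 with a library left out, and 1 with the block shared by the lines or within each line. The block changed no call of a member beyond BCL2L2, BCL2L11 and BAX, given above, and it called ATF4 in NCI-H1703R (0.30, adjusted p = 0.00482). Over all genes, 2743 were called in NCI-H1581R, against 1793 at a threshold of 0.05, 4539 in the fit of 8 libraries and 1122 to 5186 with a library left out. In NCI-H1703R 2683 were called, against 1640 at 0.05, 1730 in the fit of 8 libraries, 6357 with the block and 274 to 1686 with a library left out. The interaction called 2803 and at least 1571 with a library left out, and the comparison of resistant variants 9564 and 6120 without the first NCI-H1703R replicate.

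With a library left out, log2 fold changes in NCI-H1703R ranged from -0.14 to 0.11 for BCL2L1, -0.07 to 0.08 for MCL1, -0.00226 to 0.21 for BCL2L11, -0.01 to 0.21 for BBC3, -0.10 to 0.09 for PMAIP1, -0.20 to 0.19 for BAK1 and -0.26 to 0.12 for BIRC2. In NCI-H1581R they ranged from -0.16 to 0.23 for BCL2L1. The BCL2 interaction ranged from -0.15 to 0.95, and BMF between the sensitive lines from -0.35 to 0.04.

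The ratio of survival to BH3-only RNA changed in NCI-H1581R by -0.0108 with union exon lengths and -0.27 with median transcript lengths. With the mean of log2 levels it changed by -0.67 in NCI-H1581R and -0.46 in NCI-H1703R, both resting in part on BCL2. Between the sensitive lines it was -0.22 with median lengths, -0.81 without MCL1 and 0.80 with the mean of log2 levels, where BCL2 counts as much as MCL1. Depth limits BCL2 in the NCI-H1581 line, which had 28 counts over 4 libraries.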
